A study of Arabidopsis thaliana with 6 samples.

Results

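Young flower buds of wild type Arabidopsis are described here by the absolute level of every gene. The members are the 3 wild type libraries of a series of 6, chosen by their genotype label. The other 3 libraries come from plants that carry the transgene BnA9::BnMAGL8.1 and were left out, so no value below compares the 2 genotypes. The wild type plants were of the Col ecotype (Col-0 in the study's methods) and had no transgene, mutation or treatment, and grew in a greenhouse at 23 °C under long days (16 h of light). The labels give the tissue as flower buds with anthers of stages 6 to 9, while the number of plants behind a replicate and the hour of harvest are not stated. The replicates are given as biological, and every spread below is that between these 3 libraries.

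A bud of this age holds sepals, petals, stamens and a carpel at the same time. In the anther, meiosis gives tetrads of microspores, and the innermost wall layer around them, the tapetum, feeds the microspores. The tapetum first makes sporopollenin, the polymer of the outer pollen wall or exine, and later, as it breaks down, supplies the pollen coat. The green sepals and the young anther wall carry out photosynthesis, so a library of whole buds mixes leaf-like and anther RNA.

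Each library was measured as a count of sequenced reads per gene. The totals were 14729927, 13929718 and 13556715 counts in replicates 1, 2 and 3. Levels are given as CPM, the count of a gene over the total count of its library times 1000000. CPM serves to compare the same gene between libraries. For levels of different genes the count was first divided by the exon length, which gives a level per kilobase, again scaled to a sum of 1000000 per library. The files listed 27628 Arabidopsis genes, of which 27420 were nuclear. The transgene entry had 0 counts in each of the 3 wild type libraries, which allows up to 0.204, 0.215 and 0.221 CPM (3 counts of the total, counting error only). Had each mate of a pair been counted, the limits would be 0.407, 0.431 and 0.443 CPM.

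Replicate 3 stood apart from replicates 1 and 2 in several groups of genes. Across 18038 genes with a mean of at least 1 CPM, Pearson's r of log2(CPM + 0.5) was 0.979 between replicates 1 and 2, 0.948 between replicates 1 and 3 and 0.948 between replicates 2 and 3. These are descriptions across genes, which share the depth and handling of a library and are not independent replicates. The chi-square of the counts per degree of freedom was 14.7, 45.0 and 52.8 for the same pairs. A single library sequenced again would give a value near 1, or near 2 if both mates were counted. For several of the lists in which replicate 3 differed, a comparison of replicates 1 and 2 alone is given below.

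The labelled tissue was first checked against its marker genes. The floral identity genes SEP3, AP1 and SEP2, MADS-box factors that set the identity of floral organs, averaged 199, 132 and 65.8 CPM. All 8 listed genes of floral identity were detected in each library. AMS, a bHLH factor of the tapetum, was at 76.0, 88.5 and 93.0 CPM in replicates 1, 2 and 3. Of 12 listed tapetum regulators 10 reached a mean of 1 CPM. The early factors DYT1 and TDF1 did not, with 0 counts in each library for DYT1 and 3, 0 and 2 counts for TDF1. Genes of meiosis were low too, with 6 of 19 listed at a mean of 1 CPM or more. Genes of mature pollen were near the limit of detection. Of 23 listed, 4 had 0 counts in each library, 8 reached a mean of 1 CPM, and only ACT11 and ACT12, actins of reproductive tissue, were above 5 CPM. Of 12 root genes 6 had 0 counts in each library, among them CASP1 and CASP4 of the Casparian strip and EXPA7 of root hairs. Only 2 reached a mean of 1 CPM. IRT1, an iron transporter best known from roots, had 27.8, 31.9 and 19.8 CPM, and COBL9, a COBRA-like protein of root hairs, 18.7, 9.40 and 3.02 CPM.

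The counts were concentrated in few genes. The 10 genes of highest mean CPM held 5.66%, 6.42% and 5.78% of the counts of replicates 1, 2 and 3 (5.95% ± 0.404, SD, n = 3). The top 100 held 20.3%, 22.3% and 21.9% (21.5% ± 1.05), and the top 1000 held 54.4%, 57.4% and 55.0% (55.6% ± 1.59). To reach 50% of the counts took 771, 650 and 725 genes, each ranked within its own library, and to reach 90% took 6911, 6173 and 6904. Replicate 2 was thus the most concentrated library at both points. A mean of at least 1 CPM was reached by 18038 genes (65.3%), of at least 10 CPM by 10925, of at least 100 CPM by 1859 and of at least 1000 CPM by 118.

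**Figure D1:**
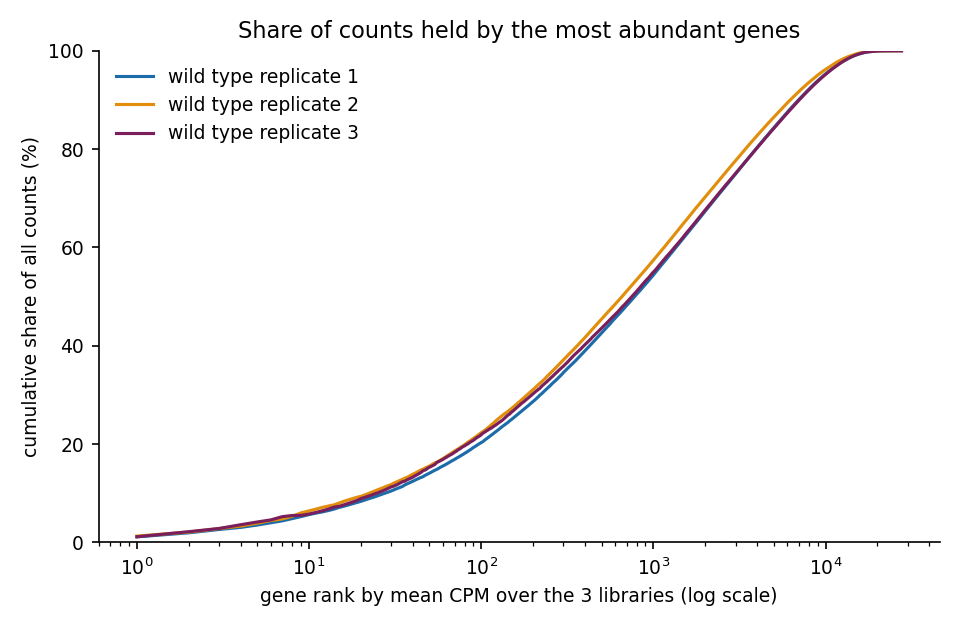
Cumulative share of all counts (percent, vertical axis) against gene rank by mean CPM (log scale, horizontal axis), 1 line for each wild type replicate. The lines run close together, with 20.3%, 22.3% and 21.9% of the counts at rank 100 in replicates 1, 2 and 3.

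Photosynthesis led the list. RBCS1A, a small subunit of Rubisco, the enzyme that fixes carbon dioxide, had the highest count of any gene, with 11293, 12921 and 11599 CPM in replicates 1, 2 and 3. The gene lies on the minus strand at chr1:25048158-25049667 (TAIR10.1). LHCB1.3, a chlorophyll-binding protein of the photosystem II antenna, followed with 8279, 8051 and 10257 CPM, and RBCS3B with 6750, 7249 and 6537 CPM. In all, 8 of the top 20 genes, 26 of the top 100 and 41 of the top 1000 were among the 46 listed genes of photosynthesis. RBCS1A held 1.13%, 1.29% and 1.16% of all counts by itself.

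Defence and storage proteins came next. TGG2, a myrosinase that cleaves glucosinolates in damaged tissue, stood at 4255, 5050 and 7587 CPM, the highest value being in replicate 3. VSP1, a vegetative storage protein abundant in flowers, was at 4807, 5803 and 5624 CPM. LTP1, a lipid transfer protein of the epidermis, had 2527, 3365 and 3446 CPM. VSP2 and LOX2, a lipoxygenase of jasmonate synthesis, were also in the top 100, at a mean of 2051 and 1678 CPM.

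Genes of translation, protein folding and metal binding were also among the top 20. AT5G60390, a translation elongation factor, had 4581, 5534 and 4265 CPM, and HSC70-1, a constitutive chaperone, 3104, 3909 and 3200 CPM. TCTP, the translationally controlled tumor protein, was the steadiest of the 20, with 2741, 2830 and 2961 CPM. The metallothionein MT2B, which binds metals, had 2717, 2765 and 3646 CPM. The remaining places went to AT2G20870, annotated as a cell wall protein, and to the photosystem II proteins LHCB5, PSBR and PSBO1. Genes whose annotated product is a ribosomal protein held 9.38%, 9.34% and 8.44% of the counts, and 166 of these 363 were in the top 1000.

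Among the top 20, 5 genes had a highest library at least 2 times the lowest. THI1, an enzyme of thiamine synthesis, was at 4506, 5550 and 2308 CPM in replicates 1, 2 and 3. GRP7, an RNA-binding protein whose transcript follows the circadian clock, was at 4183, 6854 and 292 CPM. It ranked 9 by mean CPM, and its lowest library was 23.5 times below its highest. KIN2, a cold- and stress-responsive protein, was at 3510, 3858 and 1614 CPM. LHCB1.5 and LHCA1, antenna proteins of photosystems II and I, differed in the other direction, LHCB1.5 with 3990, 3165 and 6617 CPM and LHCA1 with 2220, 1770 and 3696 CPM. Every exon stretch of 50 bases of LHCB1.5 lies also in the overlapping gene AT2G08665, so its counts are uncertain.

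**Figure D2:**
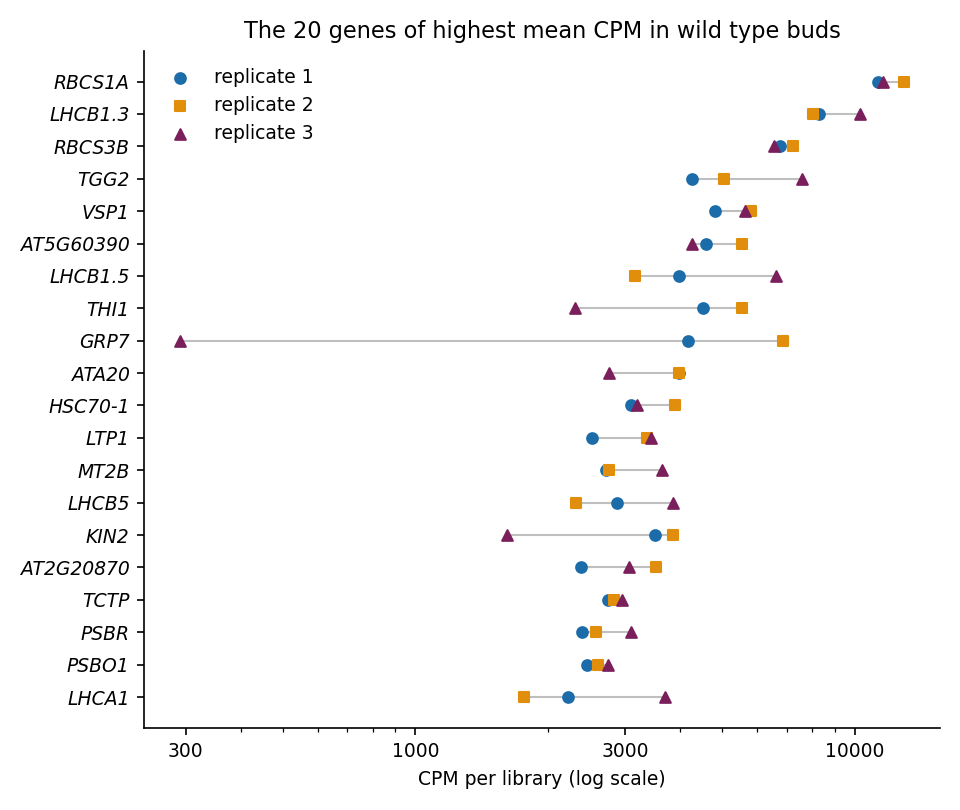
CPM (log scale, horizontal axis) of the 20 genes of highest mean CPM, a point for each of the 3 wild type libraries and a gray line over their range. RBCS1A leads with 11293, 12921 and 11599 CPM, and GRP7 is the gene with the widest range, at 4183, 6854 and 292 CPM.

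On the per-kilobase scale, on which genes can be compared with each other, 16 of the top 20 were the same genes. RBCS1A ranked 1 with a level per kilobase of 12496, 14254 and 13014 in replicates 1, 2 and 3, and LHCB1.3 ranked 2. MT2B, with a short transcript, ranked 3 with 6677, 6773 and 9085. LTP12, a lipid transfer protein of the tapetum, ranked 6 with 6228, 6380 and 5451, above VSP1 at 5041, 6066 and 5979. The levels of LTP12 and VSP1 overlapped between libraries. The pollen coat gene GRP19 ranked 16, with a level per kilobase of 5440, 4199 and 1796.

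The tapetum is a single cell layer of the anther, and 1 of its genes was among the top 20. ATA20, a glycine-rich secreted protein first found as an anther-specific cDNA, ranked 10 by mean CPM with 3988, 3980 and 2754 CPM. LTP12 was at 2619, 2691 and 2261 CPM. Of 48 genes in the 5 tapetum lists, 5 were in the top 100 and 19 in the top 1000. Together they held 2.23%, 1.98% and 1.67% of all counts (22278, 19789 and 16697 CPM). In a library of whole buds, more tapetal cells and more RNA per tapetal cell cannot be told apart.

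At the other end, 4617 of the 27628 genes (16.7%) had 0 counts in each library, and 5917 had fewer than 3 counts in each. Replicates 1, 2 and 3 lacked counts for 5723, 6384 and 6068 genes. A further 1486 genes were detected in 1 library only and 1352 in 2 libraries. The genes at 0 were short, with a median exon length of 843 bases, against 1676 bases for the 22842 nuclear genes detected. On chromosome 2 a share of 19.0% was at 0, the highest of the 5 chromosomes, and on chromosome 5 a share of 15.5%, the lowest.

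Many genes of small secreted peptides were at 0. Of 67 genes of the S1 self-incompatibility family, named after the stigma proteins that reject self pollen in poppy, 53 (79.1%) had 0 counts in each library. Of 301 defensin-like and other cysteine-rich peptide genes, 206 (68.4%) were at 0, and of 35 RALF-like peptide genes 19 (54.3%). By contrast 6 of 363 ribosomal protein genes (1.65%) and 2 of 53 histone genes (3.77%) were at 0, against 16.7% over all nuclear genes.

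In the classes of regulators counted, genes at 0 were also more frequent than the 16.7% over all nuclear genes. Of 120 genes annotated as AGAMOUS-like or MADS-box factors 50 (41.7%) were at 0, and of 652 F-box protein genes, which mark proteins for degradation, 210 (32.2%). Genes at 0 also lay side by side. The longest run held 29 neighbouring listed genes at 0, AT5G36300 to AT5G36662 at chr5:14320578-14392975 (TAIR10.1), many of them annotated as ECA1 gametogenesis related family proteins. The next run held 24 genes, AT1G34790 to AT1G35040 at chr1:12763902-12812569, with plant thionins among them.

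Genes encoded in the plastid and the mitochondrion were almost missing from the counts. Plastid genes held 0.00516%, 0.00490% and 0.00382% and mitochondrial genes 0.00564%, 0.00736% and 0.00541% of the counts of replicates 1, 2 and 3. The antenna proteins and Rubisco small subunits above are all encoded in the nucleus.

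The spread among the 3 libraries fell with the level of a gene. The median coefficient of variation (CV, SD over mean) was 39.8% for 2564 genes of 1 to 3 CPM, 17.1% for 5296 genes of 10 to 30 CPM and 9.80% for 420 genes of 300 to 1000 CPM. Counting error alone gives 19.7%, 6.44% and 1.24% at these levels. Above 1000 CPM the median CV was 13.6%, where counting error gives 0.695%. The median was above counting error in each class. Of the 2564 genes of 1 to 3 CPM 437 lay below it, and of the 118 genes above 1000 CPM none.

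**Figure D3:**
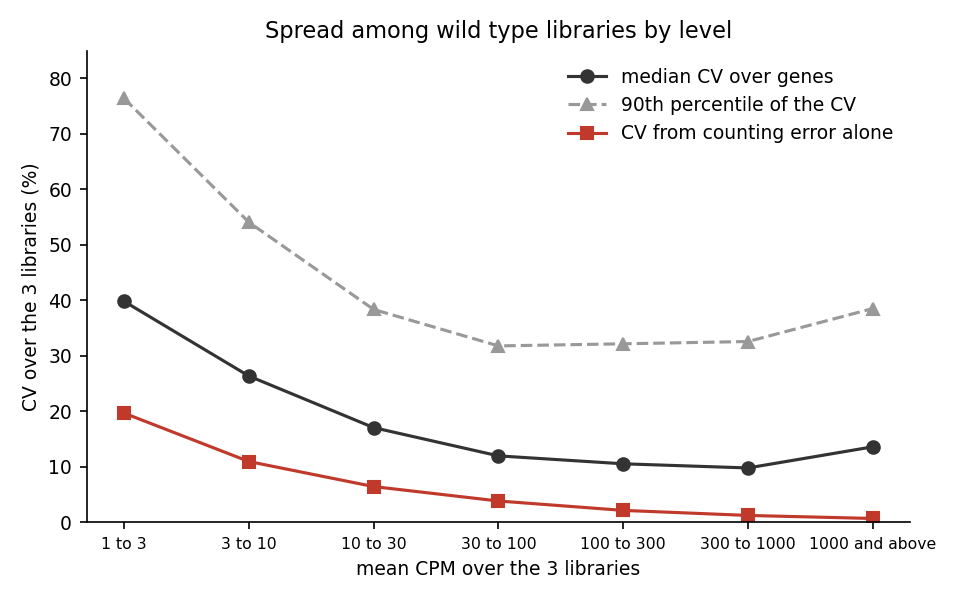
CV over the 3 wild type libraries (percent, vertical axis) by class of mean CPM (horizontal axis), as the median and the 90th percentile over genes and as the value from counting error alone. The median is 39.8% at 1 to 3 CPM, 9.80% at 300 to 1000 CPM and 13.6% at 1000 CPM and above.

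Of the 18038 genes with a mean of at least 1 CPM, 4007 (22.2%) had a highest library at least 2 times the lowest, with counts under 3 taken as 3. Between replicates 1 and 2 a share of 7.83% differed 2-fold, between replicates 1 and 3 a share of 12.1% and between replicates 2 and 3 a share of 16.0%. The highest library was replicate 1 for 38.1% of these genes, replicate 2 for 20.6% and replicate 3 for 41.3%. Scaled by TMM, edgeR's trimmed mean of log ratios, the shares were 27.6%, 33.8% and 38.6%. The median gene was 0.14 higher on the log2 scale in replicate 1 than in replicate 2 by library total. These shares are the background for the counts of list members below.

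Of the 12 tapetum regulators 10 reached a mean of 1 CPM. NAC25, a NAC factor, had 165, 103 and 135 CPM in replicates 1, 2 and 3, and EMS1, the receptor kinase that specifies the tapetum, 62.7, 57.6 and 73.5 CPM. MYB99 had 40.5, 59.1 and 81.2 CPM. DYT1, the earliest acting factor of the cascade, had 0 counts in each library, and TDF1, which acts next, had 3, 0 and 2 counts.

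MS1, a PHD-finger factor of late tapetum development, was at 5.70, 5.82 and 15.0 CPM, and MYB80, which restrains tapetal death, at 1.36, 2.44 and 5.09 CPM. Of 10 regulators with a mean of at least 1 CPM, 3 were highest in replicate 1, none in replicate 2 and 7 in replicate 3. The summed level was 402, 357 and 453 CPM (404 ± 47.8, SD, n = 3), and 4 of the 10 spread 2-fold or more, with a median ratio of highest to lowest library of 1.63, against 1.44 over all genes tested. Scaled by TMM, the split was 3, 1 and 6.

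The 9 genes of sporopollenin synthesis and export were all highest in replicate 3. PKSA, a polyketide synthase of the tapetum, was at 270.1, 327 and 583 CPM in replicates 1, 2 and 3. MS2, the fatty acyl reductase of the pathway, was at 124, 127 and 347 CPM. ACOS5, the acyl-CoA synthetase at its start, was at 74.0, 79.8 and 211 CPM. Replicate 3 was the highest in each of these 3 genes, and in MS2 and ACOS5 replicates 1 and 2 lay close to each other.

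The other members were highest in replicate 3 too, while replicates 1 and 2 did not keep 1 order. CYP704B1, a fatty acid hydroxylase, was at 24.0, 13.6 and 63.3 CPM, and ABCG26, the exporter of the precursors, at 23.2, 32.0 and 82.1 CPM. In CYP703A2, at 114.5, 191 and 236.6 CPM, replicate 2 lay nearer to replicate 3 than to replicate 1. TKPR1, a reductase of the polyketide product, was at 52.1, 43.5 and 131 CPM. All 9 genes were highest in replicate 3 under library total, TMM and RLE scaling alike, and 8 spread 2-fold or more (median ratio 2.79, against 1.44 over all genes), the exception being TKPR2 at 126, 124 and 220 CPM. Their sum was 911, 1043 and 2112 CPM (1356 ± 659, SD, n = 3). Between replicates 1 and 2 alone, none of the 9 differed 2-fold, with 3 higher in replicate 1 and 6 in replicate 2.

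The pollen coat genes went the other way. GRP19, a glycine-rich oleosin of the coat, was at 2849, 2206 and 928 CPM in replicates 1, 2 and 3. GRP17, the oleosin needed for rapid pollen hydration, was at 826, 600.5 and 299 CPM. EXL4, an extracellular lipase, was at 984, 351 and 206 CPM. In each of these replicate 1 was highest and replicate 3 lowest.

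GRP16 had the widest spread of the list, with 69.6, 23.9 and 5.75 CPM. Of the 10 genes 9 were highest in replicate 1 by library total, TMM and RLE, the exception being GRP18 at 276, 283 and 144 CPM, and 8 spread 2-fold or more (median ratio 3.56, against 1.44 over all genes). ATA27, a beta-glucosidase, was at 1443, 820 and 885 CPM and was the only member not lowest in replicate 3. The sum was 8288, 5540 and 2968 CPM (5598 ± 2661, SD, n = 3). Between replicates 1 and 2 alone, 3 of the 10 differed 2-fold and 9 were higher in replicate 1, with a median log2 difference of 0.66 where the median gene was 0.14 higher.

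These genes lie in 2 tight clusters. The 6 GRP genes are on the minus strand at chr5:2377703-2391439, with 1 other listed gene, AT5G07545, among them. EXL4, EXL5, EXL6 and ATA27 are on the plus strand at chr1:28501434-28514284 with no other listed gene between them (TAIR10.1). In the 4 genes of the EXL cluster the highest library was replicate 1, and in the GRP cluster it was replicate 1 for 5 of 6.

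**Figure D4:**
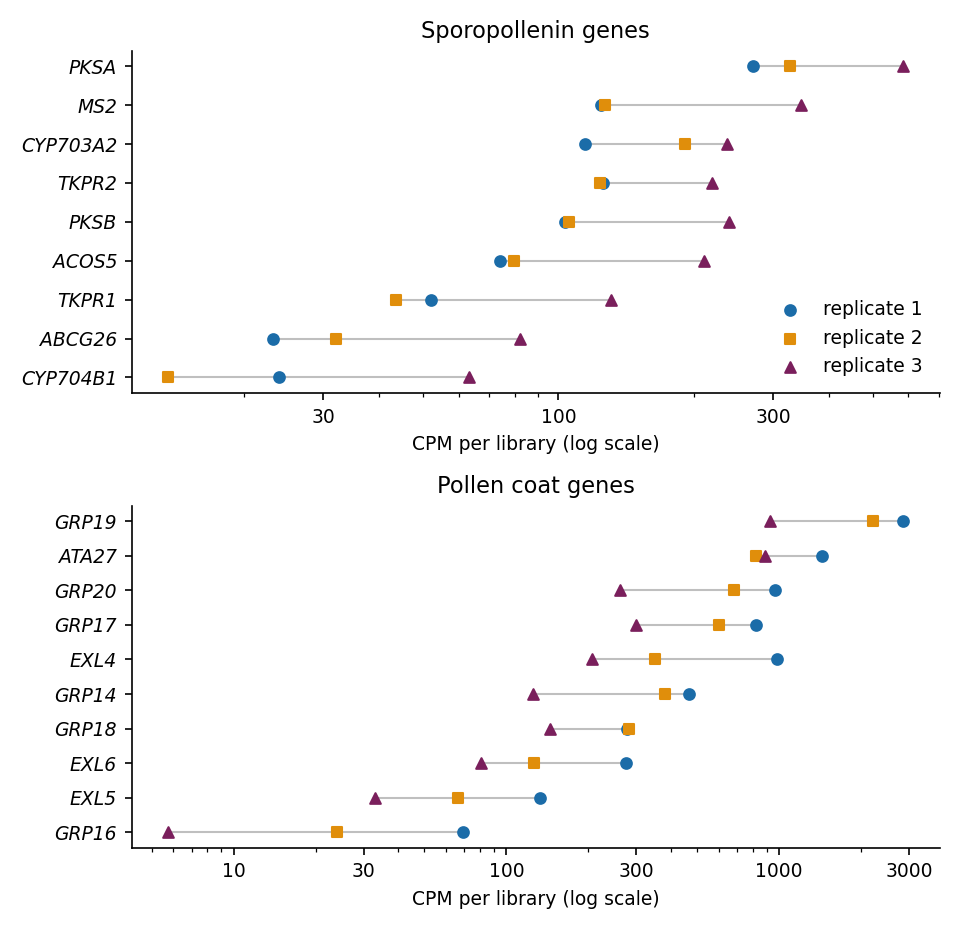
CPM (log scale, horizontal axis) of the 9 sporopollenin genes (upper panel) and the 10 pollen coat genes (lower panel) in the 3 wild type libraries, with a gray line over the range of each gene. Replicate 3 is highest for each sporopollenin gene, PKSA reaching 583 CPM there, and lowest for each pollen coat gene except ATA27.

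The other secreted proteins of the tapetum did not share 1 order. A9, the Arabidopsis relative of the gene behind the BnA9 promoter, was at 332, 633 and 629.7 CPM in replicates 1, 2 and 3. A6, a beta-1,3-glucanase-like protein of the tapetum, was at 348, 478 and 833 CPM, and ATA7, a lipid transfer protein, at 1139, 1168 and 1278 CPM. Of 12 genes with a mean of at least 1 CPM 4 were highest in replicate 1, 2 in replicate 2 and 6 in replicate 3, and by TMM 3, 3 and 6. The sum was 9190, 9569 and 8621 CPM (9127 ± 477, SD, n = 3), and 4 of the 12 spread 2-fold or more.

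Within this list the low members spread most. AT5G52160, a lipid transfer protein, was at 27.1, 5.96 and 47.6 CPM, and UNDEAD, an aspartic protease of tapetal cell death, at 4.96, 5.96 and 16.7 CPM. CEP1, the cysteine protease that carries out tapetal death, was not detectable in replicates 1 and 2 and had 4 counts in replicate 3. KNS4, a galactosyltransferase of exine patterning, was at 192, 111 and 181 CPM, but every stretch of 50 exon bases of it lies also in the overlapping gene AT1G33415, so its counts are uncertain.

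Genes of spermidine conjugate synthesis, whose products coat the pollen surface, differed less. TSM1, a methyltransferase, was at 1269, 1081 and 1215 CPM in replicates 1, 2 and 3, and SHT, the acyltransferase that joins the phenolic acid to spermidine, at 1143, 1170 and 790.5 CPM. The hydroxylase CYP98A9 was the only one of 4 to spread 2-fold, with 413, 328 and 126 CPM. The sum was 3486, 3280 and 2544 CPM (3103 ± 495, SD, n = 3), and none of the 4 differed 2-fold between replicates 1 and 2. CYP98A8, CYP98A9 and SHT each share exon sequence with an overlapping gene, for 94.5%, 60.2% and 32.1% of their stretches of 50 bases.

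The DNA just before the start of these genes was read from the TAIR10.1 reference to show what it holds. Many bHLH factors, AMS among them, bind the E-box, spelled CANNTG, so the 250 bases before the annotated gene start were searched for it on both strands. LTP12, at chr3:19136676-19136925 on the minus strand, and PKSA, at chr1:360747-360996 on the minus strand, are shown because they were the tapetum gene of highest level per kilobase and the sporopollenin gene of highest mean CPM. The capitals mark each E-box.
LTP12: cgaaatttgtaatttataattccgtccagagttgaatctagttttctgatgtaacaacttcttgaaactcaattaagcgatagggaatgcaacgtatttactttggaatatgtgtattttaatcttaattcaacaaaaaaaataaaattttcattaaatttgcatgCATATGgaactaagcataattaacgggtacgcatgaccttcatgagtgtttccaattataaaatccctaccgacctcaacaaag
PKSA: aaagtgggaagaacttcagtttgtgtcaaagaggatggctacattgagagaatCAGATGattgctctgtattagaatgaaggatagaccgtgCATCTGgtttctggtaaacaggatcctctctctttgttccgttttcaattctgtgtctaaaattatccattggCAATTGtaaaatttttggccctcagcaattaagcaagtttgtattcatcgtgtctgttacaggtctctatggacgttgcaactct

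LTP12 has 1 E-box, which begins 84 bases before the gene start, and PKSA has 3, which begin 197, 158 and 85 bases before it. The windows of ATA20 and GRP19 hold none. An E-box was found for 6 of 9 sporopollenin genes, 5 of 10 pollen coat genes and 26 of the 48 tapetum genes (54.2%), where 55.3% of all 27419 windows of this length hold one. The share in the tapetum lists was thus that of all genes, and a match is a description of the letters only.

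Most genes of meiosis were below 1 CPM. DMC1, the meiotic recombinase, was at 14.5, 11.6 and 11.0 CPM in replicates 1, 2 and 3. Of 19 listed genes 6 reached a mean of 1 CPM, and SPO11-1, which makes the meiotic breaks, and the axis protein ASY1 were at 0.327 and 0.420 CPM on average. The sum was 50.2, 43.7 and 46.8 CPM, a narrow range.

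Of 10 genes of the tetrad and the microspore wall 9 reached a mean of 1 CPM, and 3 of these spread 2-fold or more. KCS15, a fatty acid elongase of the anther, was at 368, 439 and 359 CPM, and NEF1 and DEX1, both needed for exine formation, at a mean of 107 and 37.7 CPM. RPG1, the sugar transporter SWEET8 that acts in early exine patterning, was at 281, 112 and 59.7 CPM, the same order as the pollen coat. CALS5, the callose synthase of the tetrad wall, was at 3.19, 1.58 and 1.18 CPM.

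The 23 listed genes of mature pollen, ACT11 and ACT12 included, summed to 119, 107 and 83.7 CPM in replicates 1, 2 and 3. VGD1, a pectin methylesterase of the pollen tube, had 6.25, 0.144 and 0.148 CPM in replicates 1, 2 and 3. ADF10, an actin-depolymerizing factor of pollen, had 8.83, 2.23 and 1.48 CPM, and TIP5;1, a pollen water channel, 3.53, 1.00 and 0 CPM. Of 8 members with a mean of at least 1 CPM 6 were highest in replicate 1 (38.1% over all genes tested). VGD1, TIP5;1, ADF7 and ACT4 among them reached that mean through replicate 1 only, so this count was partly fixed by the filter. The counts behind VGD1, ADF10 and TIP5;1 were 0 to 130 per library. Of the 8, 6 differed 2-fold between replicates 1 and 2 (7.83% over all genes tested), a count with the same limit.

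The petal genes were near the spread of all genes. PI and AP3, the MADS-box pair that makes petals and stamens, had 254, 187 and 285 CPM and 104, 79.3 and 123 CPM in replicates 1, 2 and 3, in the same order of libraries. SEP1, their partner, had 43.4, 21.7 and 43.2 CPM. RBE, which acts in petal initiation, had a mean of 0.515 CPM, and UFO had 0 counts in each library. The 10 genes of petal identity and outgrowth summed to 423, 306 and 474 CPM (401 ± 86.0, SD, n = 3), and 2 of 7 with a mean of at least 1 CPM spread 2-fold or more, SEP1 and BPE, with a median ratio of 1.52 against 1.44 over all genes.

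Genes listed for the cutin of the petal surface were steadier, with a median ratio of 1.24. In a library of whole buds their counts cannot be assigned to petals alone. CUS2, a cutin synthase, was at 1129, 1347 and 1668 CPM, and DCR, an acyltransferase of cutin synthesis, at 900.1, 1017 and 896 CPM. GPAT6, which makes the glycerol ester of cutin, was at 246, 266 and 220.5 CPM. The factor MYB16, which promotes conical petal cells, was the only one of 8 to spread 2-fold, with 296, 123 and 315 counts in replicates 1, 2 and 3. The sum was 2741, 3161 and 3254 CPM (3052 ± 273, SD, n = 3).

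The summed carpel and ovule genes had the narrowest range of the tapetum, petal, carpel and green lists, with 523, 501 and 501 CPM (508 ± 12.6, SD, n = 3) over 27 genes. ETT, an auxin response factor that patterns the gynoecium, was at 155, 143 and 117 CPM in replicates 1, 2 and 3, and ANT, which promotes ovule growth, at 61.5, 52.2 and 59.5 CPM. CRC, a YABBY factor of the carpel, was at 44.3, 62.0 and 47.0 CPM, and AG, the MADS-box factor of stamens and carpels, at 47.2, 39.9 and 60.8 CPM.

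Single members varied more than the sum. STK, the ovule identity factor, was at 14.9, 7.25 and 12.4 CPM, and SHP2, a factor of the fruit valve margin, at 2.99, 3.30 and 7.30 CPM. Of 26 genes with a mean of at least 1 CPM 5 (all under 15 CPM) spread 2-fold or more, and the median ratio was 1.42. The highest library was replicate 1 for 11, replicate 2 for 5 and replicate 3 for 10, and by TMM the split was 9, 9 and 8. IND, which opens the ripe fruit, was near 0 with a mean of 0.188 CPM. SHP2, ALC and STK share 51.7%, 78.2% and 7.08% of their exon stretches of 50 bases with an overlapping gene.

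The photosynthesis genes summed to 80149, 78984 and 99615 CPM in replicates 1, 2 and 3 (86249 ± 11589, SD, n = 3), that is 8.01%, 7.90% and 9.96% of all counts. Of the 46 genes, 35 were highest in replicate 3, 10 in replicate 2 and 1 in replicate 1. Scaled by TMM, 29 were highest in replicate 3, 17 in replicate 2 and none in replicate 1. Between replicates 1 and 2 alone, 23 were higher in each, and 4 of the 46 differed 2-fold. The median ratio over the list was 1.28, against 1.44 over all genes. A highest library at least 2 times the lowest was found for 9 of the 46, and for 22.2% of all genes tested.

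The widest spreads within the list were in antenna proteins, though not in all of them. LHCB1.1 was at 1149, 379.5 and 3236 CPM, LHCB2.1 at 685, 314 and 1605 CPM and LHCB3 at 1465, 1039 and 2805 CPM, each lowest in replicate 2 and highest in replicate 3. The 9 genes that spread 2-fold or more were all antenna genes, namely LHCB1.1, LHCB1.2, LHCB1.4, LHCB1.5, LHCB2.1, LHCB2.2, LHCB2.3, LHCB3 and LHCA1. Other antenna genes were steadier, such as LHCB4.1, LHCA2 and LHCB6, with ratios of highest to lowest library of 1.19, 1.27 and 1.285. The LHCB1 and LHCB2 genes are near-identical copies that share up to 29.5% of their exon stretches of 50 bases with each other, so counts can move between copies. LHCB2.3 shares 39.9% of its stretches with the overlapping gene AT3G27700.

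No listed gene of Rubisco or the Calvin cycle spread 2-fold, but not all were steady. PRK, phosphoribulokinase, was at 419, 426 and 403 CPM, and GAPB, a subunit of plastid glyceraldehyde phosphate dehydrogenase, at 1020, 1102 and 974 CPM. FNR1, which passes electrons to NADP, was at 432, 423 and 419 CPM. RBCS1B went against the antenna genes, with 1783, 1964 and 1129 CPM, as did RBCS2B with 1374, 1776 and 1165 CPM. FBA1 of the Calvin cycle was highest in replicate 3 like the antenna genes, with 648.5, 604.5 and 1040 CPM. The core subunits PSBO1 and PSAD1, of photosystems II and I, were at 2458, 2608 and 2740 CPM and at 922, 1000 and 920 CPM.

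Housekeeping and growth genes set the scale for these spreads. None of 13 reference genes (median ratio 1.14) and none of 13 epidermis genes (1.21) spread 2-fold. PP2AA3, a phosphatase subunit that the study used as its PCR reference, was at 49.8, 38.9 and 50.2 CPM in replicates 1, 2 and 3, and TIP41L at 30.01, 28.4 and 28.5 CPM. Cell division genes summed to 598, 564 and 549 CPM, with 2 of 19, CYCB1;1 and HIK, past 2-fold. CYCB1;1, a mitotic cyclin, was at 13.2, 5.02 and 11.3 CPM. Of the meristem genes STM averaged 55.2 CPM and WUS 10.3 CPM, and CLV3 had 0 counts in each library.

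**Figure D5:**
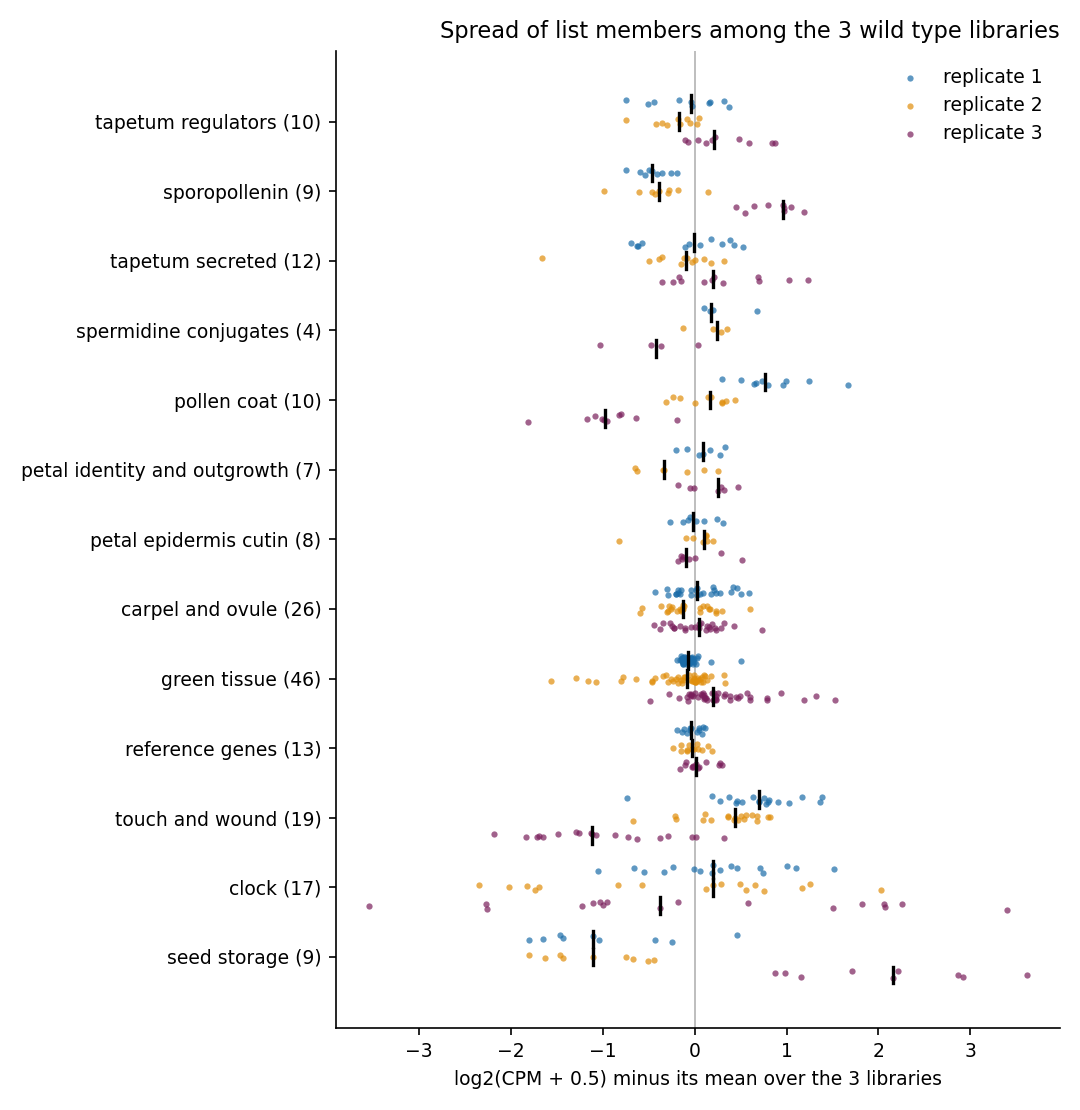
Deviation of each list member from its own mean over the 3 wild type libraries (log2(CPM + 0.5), horizontal axis) for members with a mean of at least 1 CPM, 1 point a gene and library, with black bars at the median of a list. The number of members stands in parentheses. Sporopollenin genes lie right of 0 in replicate 3 (median 0.97) and pollen coat genes left of it (median -0.97), while reference genes stay near 0.

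Clock genes also separated the libraries. All 7 morning genes were highest in replicate 3, with a sum of 35.6, 18.9 and 168 CPM in replicates 1, 2 and 3, and the 10 evening genes summed to 453, 516 and 161 CPM. LHY, a morning repressor of the clock, was at 1.09, 0.144 and 34.2 CPM, and ELF4 of the evening complex at 38.4, 55.1 and 0.664 CPM. In replicates 1 and 2 alone, 5 of the 7 morning genes differed 2-fold and all 7 were higher in replicate 1, while none of the 10 evening genes differed 2-fold. The antenna genes LHCB1.1, LHCB2.1 and LHCB3 had the same order of libraries as LHY. What part the hour of harvest had in any spread above was not tested.

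Of the 19 genes listed for touch and wounding, 18 were lower in replicate 3 than in replicate 1 and 17 lower in replicate 3 than in replicate 2. These counts hold for the list only. ERF104, an ethylene response factor, was at 19.5, 12.8 and 1.18 CPM in replicates 1, 2 and 3, and TCH4, a touch-induced wall enzyme, at 103, 78.3 and 27.7 CPM. The 19 genes summed to 1685, 1436 and 610 CPM (1244 ± 563, SD, n = 3), of which 17 were highest in replicate 1 by library total, 13 by TMM, and 16 spread 2-fold or more. Of the 19, 2 differed 2-fold between replicates 1 and 2. TCH3, ZAT12 and WRKY40 stayed under 2-fold. DDF1, an AP2-type factor, was lowest in replicate 1, with 5.70, 13.4 and 12.4 CPM, and TCH3 and CBF2 were lowest in replicate 2.

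The genes that stood farthest from the other libraries were chosen by that value, so they are given as a description. Low in replicate 3 and high in replicate 2 were JMJD5, a jumonji histone demethylase tied to the clock, with 59.1, 104 and 1.77 CPM in replicates 1, 2 and 3, and the cold-regulated COR27 with 62.8, 81.8 and 1.55 CPM. FKF1, a blue light receptor of the photoperiod pathway, was at 47.1, 56.1 and 4.43 CPM. Together with ELF4 and GRP7 these are genes that peak late in the day.

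The 10 genes farthest above in replicate 3 were LHY, RAP2.6, AT2G38240, CYP94B1, BBX31, TPS04, BETA-OHASE 2, COL1, DAD1 and GolS1. RAP2.6, an AP2-type factor, was at 4.55, 2.66 and 97.7 CPM, and CYP94B1, which oxidizes the hormone jasmonoyl-isoleucine, at 8.89, 10.5 and 132 CPM. Its relative CYP94B3, among the 10 farthest below in replicate 1, was at 17.8, 25.3 and 184 CPM. DAD1, a phospholipase that starts jasmonate synthesis in the stamen, was at 9.37, 2.51 and 53.9 CPM. GolS1, galactinol synthase, was at 22.6, 9.04 and 144 CPM.

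High in replicate 1 were genes with the same order of libraries as the pollen coat. sks13, similar to the multicopper oxidase SKU5, was at 53.0, 7.90 and 1.77 CPM, AGP23, an arabinogalactan protein, at 64.0, 18.5 and 5.61 CPM, and AT5G53820, annotated as a late embryogenesis abundant protein, at 120, 20.03 and 7.38 CPM. XTH3, a xyloglucan-modifying enzyme, was at 408, 120 and 43.7 CPM. PAB3, a poly(A) binding protein, was at 39.4, 9.04 and 4.13 CPM.

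The windows before genes that stood high in replicate 2 or low in replicate 3 were searched for the evening element, spelled AAAATATCT, on both strands. This search was chosen after their values were seen. The element is known from clock-controlled genes of the evening. GRP7, at chr2:9266558-9266807 on the minus strand, is shown because it is the only one of these genes in the top 20, with its copies in capitals.
GRP7: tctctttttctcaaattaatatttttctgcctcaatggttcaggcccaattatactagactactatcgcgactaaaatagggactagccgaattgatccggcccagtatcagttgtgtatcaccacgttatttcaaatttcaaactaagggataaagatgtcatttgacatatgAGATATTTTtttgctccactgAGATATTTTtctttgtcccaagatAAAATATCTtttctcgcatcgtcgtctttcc

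GRP7 holds 3 copies, which begin 76, 55 and 31 bases before the gene start. FKF1, BOA, RbcX1 and AT4G30650 hold 1 each, and ELF4, JMJD5, AT4G32340, AT1G11210, AT2G33830 and scpl35 hold none. Of all 27419 windows 2.36% had a match. The genes were picked by their values, and no test was made.

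Seed genes were highest in replicate 3. SESA5, a 2S albumin of the seed, had 284 counts in replicate 3 (20.9 CPM) and 0 in replicates 1 and 2, and CRU3, a 12S cruciferin, 135 counts and 0 in both others. CRA1, another cruciferin, had 0.407, 1.51 and 12.2 CPM in replicates 1, 2 and 3. The 18 seed genes summed to 4.41, 3.52 and 77.5 CPM, and all 9 with a mean of at least 1 CPM by library total were highest in replicate 3. SESA5, CRU3, EM6 and OLEO2 among them reached that mean through replicate 3 only, so this count was largely fixed by the filter. Only OLEO4, at 1.02, 1.005 and 3.25 CPM in replicates 1, 2 and 3, was above 1 CPM in each library. Of the 9, 2 differed 2-fold between replicates 1 and 2. The seed regulators LEC1, LEC2, FUS3 and ABI3 had 0 counts in each library.

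Counted over all genes, 25 genes with at least 20 counts in replicate 3 had 0 in both others, and 7 of these were on the seed list. Among the 7 were EM6, a late embryogenesis protein, with 127 counts, and OLEO2, an oil body oleosin, with 61. LCR67, a defensin-like peptide outside the list that was named after its values were seen, had 205. The near-identical HSD1 pair had 77 and 73 counts. Replicate 1 had 13 such genes, with at most 44 counts, and replicate 2 had none. The summed seed list is 0.00775% of the counts of replicate 3. Its part in the other differences of replicate 3 was not tested.

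AtMAGL8 (AT2G39420), the Arabidopsis relative of the lipase gene carried by the transgenic plants, was at 10.4, 5.38 and 18.5 CPM in replicates 1, 2 and 3.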

How the data were processed

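Counts were used as deposited: the authors aligned with HISAT2 against Arabidopsis, to which they added the BnaC.MAGL8.a coding sequence, and summarised reads per gene with featureCounts. TAIR10 and DESeq2 are also named in the submitters' processing notes. For versions, strand, multiply mapped reads and mates the entry is: not given in the sources used here. Of the counts from 1 to 20, 75.5% to 78.0% were even. Counting both mates of a pair would raise the CV from counting error at 10 to 30 CPM from 6.44% to 9.11%. The 3 transgenic columns were not used.

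CPM used the library total. Exon lengths, coordinates and the 250 bases before a gene came from RefSeq's TAIR10.1, whose genes overlap 19 of 19 TAIR intervals checked, and no plastid or mitochondrial gene got a length. Factors were computed with edgeR 4.0.16 in R 4.3.3, all else with Python 3.11.15 and matplotlib 3.10.9. With 1 group no test was made. The code for the CV was tested on simulated data.

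Names were drawn from the 20 genes of highest CPM and per-kilobase level, the highest and most spread members of each list, the 10 farthest genes per library and direction with a mean of at least 10 CPM, AtMAGL8, the transgene and PP2AA3; other list members are named for their role, after their values were seen. The 22 lists (325 genes) and the members were chosen with earlier results of these data known, and the gene listed as SZF2 is SZF1 in the annotation. Of 325 genes 68 share at least 5% of their stretches of 50 exon bases with another gene. Alternatives were other scalings and filters, the per-kilobase level, leaving out organelle genes and leaving out each library. The window before 1 gene of the evening element search is not reported here.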

Additional observations from a re-analysis of the deposited data

How the results depend on the processing

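Of 53 recomputed values of 9 results 47 moved by less than the spread between libraries or, for counts of genes, by less than 1.5 times. The number of genes that spread 2-fold or more, 4007, moved with the libraries and the filter. It lay between 1389 and 2838 when 1 library was left out, with 1389 without replicate 3 and 2261 without replicate 2, where fewer libraries give fewer chances of a wide range. It was 1116 among genes with a mean of at least 10 CPM and 6080 with no filter on low values. On the per-kilobase scale the top 10 genes held 7.19% and the top 100 held 24.8%, against 5.95% and 21.5% of the counts. With TMM scaling 27.6%, 33.8% and 38.6% of genes were highest in replicates 1, 2 and 3, and with RLE 27.7%, 34.7% and 37.6%, against 38.1%, 20.6% and 41.3% by library total. No paired analysis was possible because the report holds 1 group of samples and no test. Depth limits genes of few CPM: a count of 0 allows up to 0.204 to 0.221 CPM, or 0.407 to 0.443 CPM if both mates were counted.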

Other observations

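Of 9 genes of defence and storage 1 spread 2-fold (22.2% over all genes tested), with a median ratio of highest to lowest library of 1.498, against 1.44 over all genes. TGG1, a myrosinase of guard cells and myrosin cells, was at 528, 556 and 2102 CPM in replicates 1, 2 and 3, and was that gene. TGG2, the other myrosinase, was at 4255, 5050 and 7587 CPM. MBP2, a myrosinase-binding protein, was at 1024, 1093 and 983 CPM, and ESP and ESM1, which set the products of glucosinolate breakdown, averaged 144 and 133 CPM. VSP2 was at 1606, 1910 and 2638 CPM, also highest in replicate 3, while VSP1 was highest in replicate 2 with 5803 CPM. The list summed to 14222, 16661 and 21131 CPM.

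The epidermis was among the steadiest tissues. PDF1, a protodermal protein, was at 1133, 1307 and 1183 CPM in replicates 1, 2 and 3, and the homeodomain factors ATML1 and PDF2, which specify the epidermis, averaged 62.7 and 88.4 CPM. CER1, an enzyme of wax alkane synthesis, was at 796.5, 856 and 961 CPM. The list summed to 8202, 9733 and 9366 CPM. Replicate 2 was highest in 7 of the 13 genes by library total and in 9 of 13 by TMM.

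The 13 genes whose annotated product names an oleosin held 0.209%, 0.219% and 0.0878% of the counts in replicates 1, 2 and 3. This is not the share of all oleosins. The pollen coat oleosin GRP19, annotated as a glycine-rich protein, is left out and had 2849, 2206 and 928 CPM by itself. Histone genes held 0.792%, 0.808% and 0.733%, and cytochrome P450 genes 0.440%, 0.452% and 0.457%.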
